A study of Drosophila melanogaster with 12 samples.

Results

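Complex I (NADH:ubiquinone oxidoreductase) is described here through the transcripts of its nuclear-encoded subunits on tagged ribosomes of Drosophila melanogaster oenocytes. The members are the loci of the deposited expression table whose FlyBase symbol begins with "ND-" followed by a letter or a digit, after the RefSeq transcript IDs of each locus were turned into symbols. The rule found 40 of 16191 loci: 7 core subunits, 27 accessory subunits and 6 loci named as copies of a subunit by an added L. The 34 core and accessory loci are called subunits below. The rule used names and no measured value.

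Complex I is the entry point of most electrons into the mitochondrial respiratory chain. Its peripheral arm reaches into the matrix, takes electrons from NADH at a flavin and passes them along iron-sulfur clusters to ubiquinone, and its membrane arm pumps protons. The core subunits, conserved from bacteria, carry the chemistry, while accessory subunits surround them and serve assembly and stability. The core of the membrane arm is encoded by mitochondrial DNA, whose genes were not analysed here. Complex I is also a main site of superoxide formation, and paraquat is a redox-cycling herbicide used to raise superoxide in cells. Oenocytes are abdominal cells that make cuticular hydrocarbons and share lipid-handling functions with the liver.

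All 4 groups were adult females in which PromE-Gal4, an oenocyte driver built from Desat1 regulatory sequence, expressed FLAG-tagged RpL13A, a ribosomal protein, from UAS-RpL13A-FLAG. RNA bound to the tagged ribosomes was isolated with an anti-FLAG antibody (RiboTag) from ground whole flies and sequenced, with 3 libraries per group, each from pooled females. H2O-Young and H2O-Aged flies were labelled 14 and 28 days after eclosion and had normal food, and PQ-Young and PQ-Aged flies of the same ages were fed 10 mM paraquat for 24 h. The study's methods give ages that differ from the labels by a few days. No group without the tag and no input RNA was analysed here. A level is therefore that of the RNA recovered with the antibody. RNA carried over from other cells cannot be told apart from RNA on tagged ribosomes. The study detected no RNA in pull-downs that lacked the antibody or the tagged protein.

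The authors deposited 1 FPKM (fragments counted per length of transcript and per size of the library) per locus and group, pooled by Cuffdiff over the 3 libraries. No spread between libraries could therefore be computed, no test was possible for any comparison, and how deeply each library was sequenced is not known here. In the study's principal component analysis 1 of the H2O-Young samples lay apart from its replicates. The H2O-Young pool is the base of the age ratio in water and of the paraquat ratio in young flies. How far that library moved these ratios could not be tested. A locus is called lower or higher when its group FPKM differed by at least 2-fold, among protein-coding loci with at least 1 FPKM in at least 1 of the groups compared. All 34 subunits passed this minimum in all 4 comparisons and none of the 6 copies did. Each count of all 34 subunits as deposited is set beside the percentage of all such loci that was called the same way. Counts of smaller sets as deposited can be read against the same percentages.

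The summed FPKM of protein-coding loci was 1648540 in H2O-Young and 1221730 in PQ-Young, against 748213 in H2O-Aged and 733727 in PQ-Aged. Loci with a mean of at least 100 FPKM (1389 loci) held 89.0%, 86.5%, 78.4% and 78.9% of it. Where 4 values follow each other without group names, young flies in water and then under paraquat come first, followed by aged flies likewise. Of the 7 oenocyte markers, 6 were measured, none of them at 0 (Cyp4g1 had too many fragments to be quantified), and their summed FPKM was 13327, 6583, 1854 and 1301 in the same order. The other marker lists were read beside complex I, and their part in the results below was not tested. The 7 ovary and eggshell markers summed to 4741, 1164, 1018 and 867 FPKM, the 7 fat body markers to 21464, 7795, 2148 and 1091, and the 4 midgut markers to 3591, 1587, 857 and 905. The 8 measured muscle markers summed to 268, 302, 263 and 239 FPKM and the 4 neuron markers to 17.5, 17.1, 7.88 and 10.1. Such sums are carried by the highest members. With age in water 4 of the 7 ovary and eggshell markers were at least 2-fold lower, but 2 were higher, vas (log2 ratio of 1.45) and nos (2.25). The muscle markers ran from -0.95 (bt) to 1.41 (Act88F). Of the measured markers of these lists only Fbp1 of the fat body was at 0, in both water groups, while the 4 male germline markers had between 1 and 3 genes at 0 per group and summed to at most 0.0486 FPKM. In such a pool, fewer cells of a type and less RNA per cell cannot be told apart.

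By their median, the 34 subunits were among the abundant transcripts of every group. Their median FPKM was 920 in H2O-Young and 491 in PQ-Young, against 235 in H2O-Aged and 249.9 in PQ-Aged. The median subunit stood at percentile 97.6, 97.1, 96.1 and 96.3 of all protein-coding loci in these groups. ND-B8 and ND-AGGG stood far lower, at percentiles 34.6 and 47.5 in PQ-Aged. Of the FPKM summed over protein-coding loci, the subunits held 2.26% in the young and 1.26% in the aged water group, and 1.74% and 1.47% under paraquat. The 7 core subunits alone held 0.276% and 0.170% in water and 0.217% and 0.184% under paraquat. H2O-Young was the highest of the 4 groups for 33 of 34 subunits, against 40.5% of 8478 protein-coding loci. The order H2O-Young, then PQ-Young, then both aged groups held for 32 of 34 subunits, against 31.7% of these loci. Both counts rest on the H2O-Young pool, which holds the library that lay apart. Abundant loci leaned the same way. Of the 1389 loci with a mean of at least 100 FPKM, 1094 had a ratio below 1 with age in water. With paraquat in young flies 977 of them did.

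**Figure D1:**
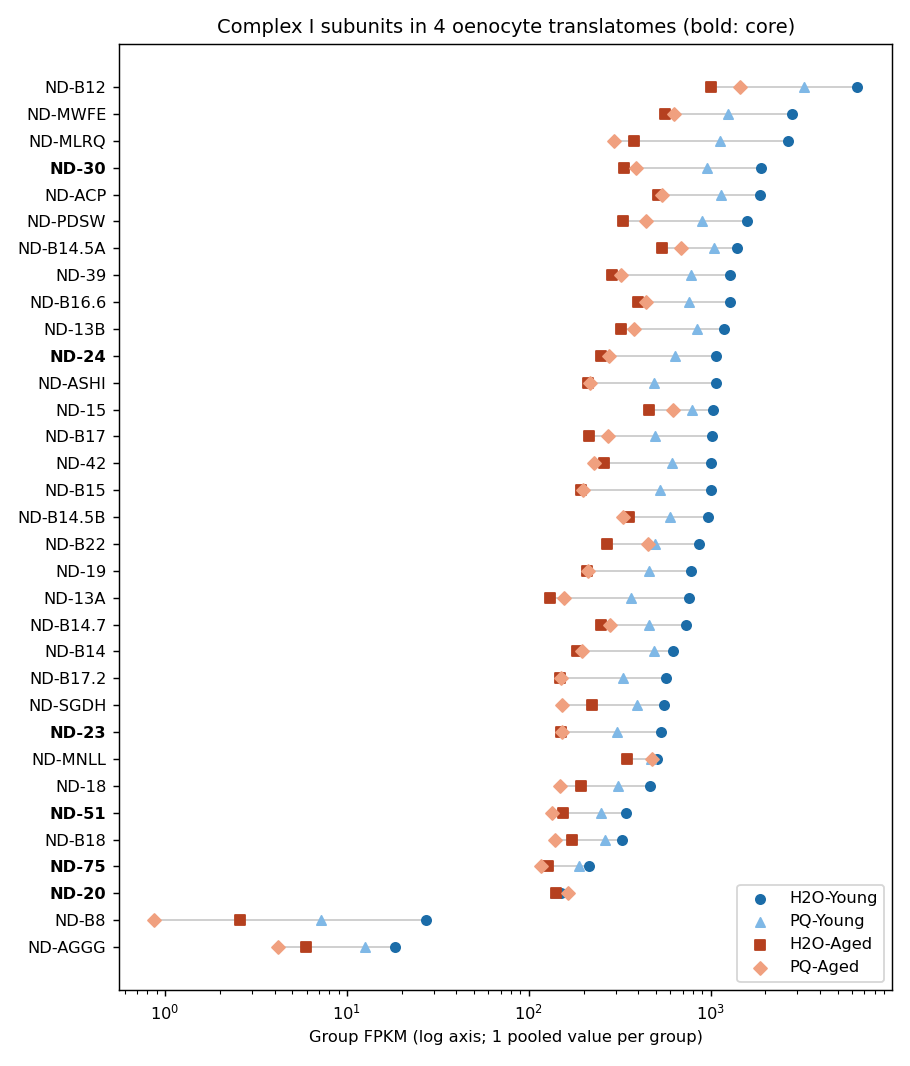
Group FPKM of 33 complex I subunits on a log axis, 1 pooled value per group, ordered by the level in H2O-Young, with core subunits in bold and a grey line joining the lowest and highest group. In all of these but ND-20 and ND-MNLL the H2O-Young point lies to the right, then PQ-Young, then both aged groups, and ND-B8 and ND-AGGG lie far below the rest.

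The core subunits that take electrons from NADH form the tip of the peripheral arm. ND-51 (human counterpart NDUFV1), which binds the flavin where NADH is oxidized, was at 342 FPKM in H2O-Young and 250.0 in PQ-Young, against 155 in H2O-Aged and 134 in PQ-Aged. ND-24 (NDUFV2), the iron-sulfur subunit beside the flavin, was at 1065, 636, 249.9 and 276 FPKM. ND-75 (NDUFS1), the large iron-sulfur subunit of the same module, was at 215, 189, 128 and 117 FPKM. All 3 were highest in H2O-Young and lowest in an aged group, and ND-75 had the narrowest range of the 3.

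The other core subunits hand the electrons to ubiquinone. ND-30 (NDUFS3), a subunit of this module without a redox centre, was the most abundant core subunit in every group, at 1881 FPKM in H2O-Young and 959 in PQ-Young, against 335 in H2O-Aged and 389.9 in PQ-Aged. ND-23 (NDUFS8), which carries iron-sulfur clusters, was at 532, 304, 151 and 151 FPKM. ND-20 (NDUFS7), which holds the last iron-sulfur cluster before the quinone, was at 151, 139, 141 and 163 FPKM. ND-20 was thus the only core subunit whose 4 group values lay within 1.5-fold of each other, and the only 1 of the 34 subunits that was not highest in H2O-Young.

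These core genes lie apart in the genome (dm6, spans of the Release 6 annotation). ND-30 is at chr3L:3158485-3159578, ND-51 at chr2L:6060842-6062757, ND-24 at chrX:17632089-17633509, ND-75 at chrX:8248651-8251687, ND-23 at chr3R:15836048-15837117 and ND-20 at chrX:15985473-15986808. The FPKM of a locus covers all of its transcripts. ND-51 was the only core subunit whose exons overlap another gene, CG34180 on the opposite strand.

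Among accessory subunits, ND-B12 (NDUFB3), a small membrane-arm protein, was the most abundant complex I transcript of every group. ND-B12 was at 6399 FPKM in H2O-Young and 3241 in PQ-Young, against 1001 in H2O-Aged and 1449 in PQ-Aged. ND-MWFE (NDUFA1), another small membrane-arm protein, was at 2814, 1249.7, 562 and 627 FPKM, in a locus that also holds Nrk. ND-MLRQ, whose human counterpart NDUFA4 is now counted with complex IV, was at 2663, 1123, 377 and 296 FPKM. Each of these was at least 4-fold lower in H2O-Aged than in H2O-Young.

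ND-ACP (NDUFAB1), the mitochondrial acyl carrier protein, was at 1877 FPKM in H2O-Young and 1134 in PQ-Young, against 510.5 in H2O-Aged and 538 in PQ-Aged. ND-PDSW (NDUFB10), a membrane-arm subunit, was at 1589, 897, 329 and 439 FPKM. ND-B14.5A (NDUFA7), of the peripheral arm, was at 1394, 1042, 539.9 and 689.8 FPKM. ND-B14.5A ranked 7th of the 34 subunits in H2O-Young and 2nd in PQ-Aged.

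At the other end, ND-AGGG (NDUFB2), a small membrane-arm protein, was at 18.4, 12.6, 5.93 and 4.15 FPKM from H2O-Young and PQ-Young to the aged groups in the same order. ND-B8 (NDUFA2), a peripheral-arm protein with a thioredoxin fold, was at 27.3, 7.20, 2.57 and 0.870 FPKM. The lowest of the other subunits in H2O-Young was ND-20 at 151 FPKM, so these members stand apart in level from the rest of their complex. ND-B8 (chr2L:4454626-4455207) overlaps exons of Gs1l on the opposite strand, a separate locus of the table at 465, 383, 243 and 266 FPKM. The library kit marks strand, but the strand setting of the counting is not given in the sources used here, so reads of ND-B8 and Gs1l may have been divided between the loci. ND-AGGG (chr3L:24976254-24977118) overlaps no other gene.

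The L-named copies were at or near 0 in all groups. ND-51L1 was listed at 0.0514 FPKM in H2O-Young and 0.0754 in PQ-Young, against 0.0732 in H2O-Aged and 0.184 in PQ-Aged. ND-B14.5AL was listed at 0.144 FPKM in H2O-Aged and at 0 in the other groups. ND-51L2 at 0.0997, ND-24L at 0.216 and ND-20L at 0.269 FPKM were above 0 in PQ-Aged only. Of the subunits that the copies are named after, ND-51, ND-24, ND-20 and ND-B14.5A were at 134 FPKM or more in every group.

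The comparison of H2O-Aged with H2O-Young asks how the oenocyte translatome differs with age. Of the 34 subunits, 30 were at least 2-fold lower in H2O-Aged and 0 were higher, against 23.7% of 9106 protein-coding loci lower and 13.6% higher. All 34 ratios were below 1, and the median subunit was 3.59-fold lower (log2 ratio of -1.84). The median of all loci in this comparison was a log2 ratio of -0.11, and 9.03% of them lay below the median subunit. Abundant loci as a class were lower: of 1389 loci with a mean of at least 100 FPKM, a minimum set with these values in view, 44.2% were called lower, with a median log2 ratio of -0.85.

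The strongest age ratio belonged to ND-B8 (log2 ratio of -3.41), followed by ND-MLRQ (-2.82) and ND-B12 (-2.68), and ND-30 had the strongest of the core (-2.49). The 4 subunits less than 2-fold lower were ND-20 (log2 ratio of -0.09), ND-MNLL (-0.55), ND-75 (-0.75) and ND-B18 (-0.92). ND-MNLL (NDUFB1), a small membrane-arm protein in a locus shared with CG45089, was at 504 FPKM in H2O-Young and 473 in PQ-Young, against 345 in H2O-Aged and 477 in PQ-Aged. ND-B18 (NDUFB7), on the intermembrane-space side, was at 325, 264, 172 and 140.0 FPKM. ND-18 (NDUFS4), an accessory subunit of the NADH-oxidizing module, was at 465, 310, 194 and 149 FPKM. Of these named subunits, all but ND-MNLL and ND-20 had both aged values below both young values.

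With the groups scaled in other ways the direction of the median subunit did not turn, but the counts did move. With the groups set to the same summed FPKM, 11 of 34 subunits were at least 2-fold lower with age and 1 was higher (ND-20), with a median log2 ratio of -0.70, against 6.25% of all loci lower and 50.9% higher. That scaling moves the median of all loci by 1.14. Relative to the median protein-coding locus, the median subunit was lower by a log2 ratio of -1.73 as deposited, which no scaling by 1 factor per group can alter, and of -0.97 after quantile scaling. The ratio of ND-20 was above 1 under each of the 4 other scalings.

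**Figure D2:**
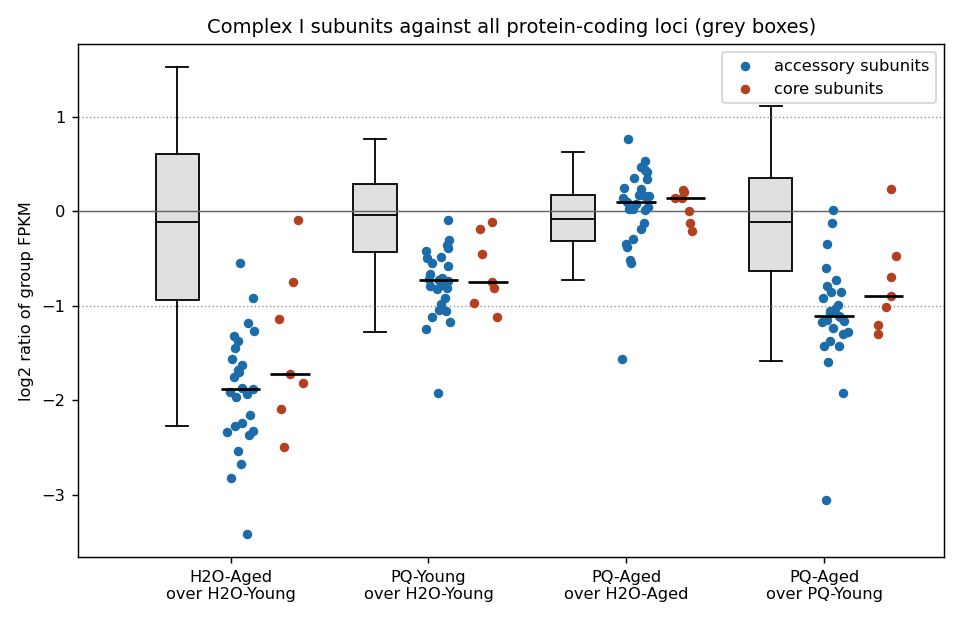
Log2 ratios of group FPKM in the 4 comparisons for 27 accessory and 7 core subunits, with their medians as black bars, beside all protein-coding loci of at least 1 FPKM (grey boxes: quartiles and median, whiskers at the 5th and 95th percentile), with dotted lines at 2-fold. The subunit medians are -1.84, -0.73, 0.12 and -1.07 from left to right over both classes.

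PQ-Young against H2O-Young addresses paraquat in young flies. Of the 34 subunits, 7 were at least 2-fold lower and 0 were higher, against 8.63% of 9046 protein-coding loci lower and 2.72% higher. All 34 were below 1, with a median 1.66-fold lower (log2 ratio of -0.73), while the median of all loci was -0.04. Of loci with a mean of at least 100 FPKM 10.2% were lower, with a median of -0.26. Past 2-fold were 1 core subunit and the accessory subunits ND-B8 (log2 ratio of -1.92), ND-MLRQ (-1.25), ND-MWFE (-1.17), ND-ASHI (-1.12), ND-13A (-1.05) and ND-B17 (-1.04).

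ND-ASHI (NDUFB8), of the membrane arm, was at 1063 FPKM in H2O-Young and 489 in PQ-Young, against 211 in H2O-Aged and 218 in PQ-Aged. ND-13A (NDUFS6), a zinc-binding subunit of the NADH-oxidizing module, was at 759, 366, 131 and 156 FPKM. ND-B17 (NDUFB6), of the membrane arm, was at 1016, 493, 215 and 272 FPKM. In these 3, the PQ-Young value lay between H2O-Young and both aged groups. The ratios nearest to 1 belonged to ND-MNLL (log2 ratio of -0.09), ND-20 (-0.11) and ND-75 (-0.18). With the groups set to the same summed FPKM only ND-B8 stayed past 2-fold (2.94% of subunits), against 4.13% of all loci lower. The median subunit was then at -0.30, against 0.39 for all loci, and 27 of 34 subunits were below 1.

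In aged flies the paraquat ratios of complex I lay close to 1. Between PQ-Aged and H2O-Aged 1 of 34 subunits was at least 2-fold lower (ND-B8, log2 ratio of -1.56) and 0 were higher, against 1.91% of 8699 protein-coding loci lower and 1.52% higher. The median subunit had a log2 ratio of 0.12, with 24 subunits above 1 and 10 below. Of all 8699 loci, 5096 were below 1, with a median log2 ratio of -0.08, and 70.2% lay below the median subunit. Of the 1389 loci with a mean of at least 100 FPKM, 765 were below 1, with a median of -0.06. The highest ratios were those of ND-B22 (0.76), ND-B12 (0.53) and ND-MNLL (0.47), and after ND-B8 the lowest were those of ND-SGDH (-0.54) and ND-AGGG (-0.51). ND-B22 (NDUFB9), an LYR-motif subunit of the membrane arm, was at 868 FPKM in H2O-Young and 496 in PQ-Young, against 268 in H2O-Aged and 454 in PQ-Aged. ND-SGDH (NDUFB5), also of the membrane arm, was at 555, 395, 223 and 153 FPKM. PQ-Aged was near PQ-Young for ND-B22 and was the lowest group for ND-SGDH.

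The ratio to water was higher in aged than in young flies for 33 of 34 subunits, by a median of 0.81 on the log2 scale, against 47.3% of 8478 protein-coding loci and a median of -0.04. The difference ran from -0.05 in ND-SGDH to 1.57 in ND-B22. For the 1389 loci with a mean of at least 100 FPKM, the median paraquat log2 ratio was -0.26 in young and -0.06 in aged flies. How many loci of that class had a higher ratio in aged flies was not computed. Spearman's rho between the ratios in young and in aged flies was -0.01 over the 34 subunits, which come from the same libraries, although ND-B8 had the lowest ratio at both ages. With the same summed FPKM in each group the ratio was higher in aged flies for 26 of 34 subunits, with a median difference of 0.41, against 26.6% of all loci. The ratio in young flies has the H2O-Young pool as its base, as the age ratio in water does. Whether the difference exceeds that between libraries could not be tested.

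**Figure D3:**
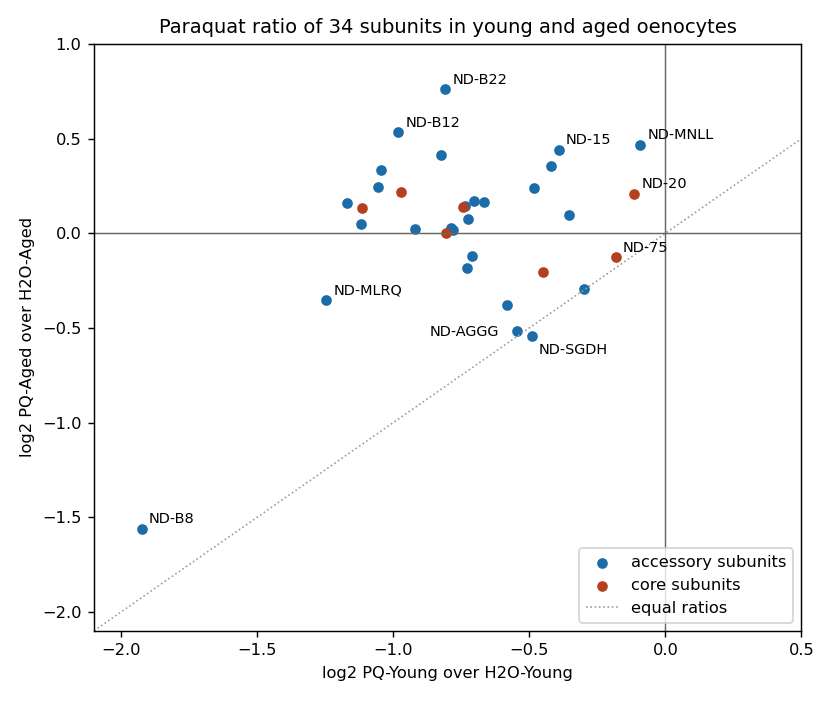
Log2 ratio of paraquat to water in young flies (x axis) and in aged flies (y axis) for each of 34 subunits, with a dotted line where the ratios are equal. All 34 points lie left of 0 and 33 lie above the dotted line, with ND-SGDH just below it.

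The age comparison under paraquat, which shares no group with that in water, gave 20 of 34 subunits at least 2-fold lower in PQ-Aged than in PQ-Young and 0 higher, against 13.8% of 8914 protein-coding loci lower and 6.54% higher. The median subunit was at a log2 ratio of -1.07, with 32 of 34 below 1. Of loci with a mean of at least 100 FPKM 28.2% were lower, with a median of -0.60. The strongest ratios were those of ND-B8 (-3.05), ND-MLRQ (-1.92) and ND-AGGG (-1.60). The weakest were those of ND-20 (0.23), ND-MNLL (0.01) and ND-B22 (-0.13). ND-MLRQ and ND-B8 were thus among the 3 strongest, and ND-20 and ND-MNLL among the 3 weakest, in both age comparisons. Across the 34 subunits the ratios with age in water and under paraquat had a Spearman's rho of 0.66.

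The subunits below 2-fold in this comparison included 4 of the 7 core subunits, among them ND-20, ND-75 and ND-51. Their accessory companions were ND-15, ND-B14.5A, ND-B14.5B, ND-B14.7, ND-B16.6, ND-B17, ND-B18, ND-B22, ND-MNLL and, just below the fold, ND-MWFE (log2 ratio of -0.99). ND-15 (NDUFS5), on the intermembrane-space side and in a locus shared with CG3436, was at 1034 FPKM in H2O-Young and 788 in PQ-Young, against 457 in H2O-Aged and 620.4 in PQ-Aged. The number lower was 2 with the same summed FPKM (5.88% of subunits, against 4.09% of all loci). It was 1 with the groups scaled to Gapdh1 (2.94% against 2.84%) and 3 after quantile scaling (8.82% against 10%). Under these scalings the subunits were thus called lower about as often as all loci. The median subunit still lay below the median locus, by a log2 ratio of -0.96 with the same sum or Gapdh1 and of -0.50 after quantile scaling. Called higher were 0 of 34 subunits with the same sum, against 29% of all loci. With Gapdh1 2 of 34 were higher, against 45.1%. Gapdh1, a glycolytic enzyme, was itself at 846, 907, 654 and 447 FPKM.

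Core and accessory subunits had similar ratios. With age in water 5 of 7 core and 25 of 27 accessory subunits were at least 2-fold lower, with median log2 ratios of -1.72 and -1.88. With paraquat in young flies the counts were 1 of 7 and 6 of 27, with medians of -0.74 and -0.73. In aged flies they were 0 of 7 and 1 of 27, with medians of 0.14 and 0.10. With age under paraquat they were 3 of 7 and 17 of 27, with medians of -0.90 and -1.11. The medians of core minus accessory subunits thus differed by 0.16, -0.02, 0.04 and 0.21, while the subunits within either class ranged over more than that in every comparison. The subunits share libraries and are not replicates, so the classes were not tested against each other.

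Assigned by their human counterparts, 15 subunits belong to the peripheral arm and 17 to the membrane arm (ND-ACP, found in both arms, and ND-MLRQ were left out). With age in water 13 of 15 and 15 of 17 were at least 2-fold lower, with medians of -1.82 and -1.70. With paraquat in young flies 3 of 15 and 3 of 17 were lower, with medians of -0.70 and -0.74. The level differed more than the ratio: the median FPKM in H2O-Young was 566 in the peripheral and 1000.2 in the membrane arm. Arm and class are mixed here, because all 7 core subunits belong to the peripheral arm and the membrane-arm set is accessory only. The 8 accessory subunits of the peripheral arm had a median of 690 FPKM in H2O-Young.

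The core subunits lay closer together in level in the aged than in the young groups. The highest core subunit was 12.5-fold above the lowest in H2O-Young and 6.89-fold in PQ-Young, against 3.02-fold in H2O-Aged and 3.33-fold in PQ-Aged. These folds are ratios within a group and do not depend on a scaling factor. Over all 34 subunits there was no such narrowing: the SD of log2 FPKM was 1.65, 1.66, 1.61 and 1.93, widest in PQ-Aged, where ND-B8 was at its lowest. Over 32 subunits, without the low ND-B8 and ND-AGGG, it was 1.10, 0.94, 0.73 and 0.88, and over the 25 accessory subunits among these it was 0.92, 0.79, 0.69 and 0.85, so that PQ-Aged was not narrower than PQ-Young there. Over the 1389 abundant loci the SD was 1.73, 1.61, 1.43 and 1.45.

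Relative to the median subunit of its group, ND-20 was at 0.164 in H2O-Young and 0.284 in PQ-Young, against 0.601 in H2O-Aged and 0.654 in PQ-Aged. ND-75 was at 0.234, 0.386, 0.543 and 0.469, and ND-51 at 0.371, 0.509, 0.657 and 0.537. ND-30 went the other way, at 2.04, 1.95, 1.42 and 1.56. ND-20 and ND-75, of low level in H2O-Young, thus stood nearer to the median of the complex in both aged groups, as did ND-30 from above. Among accessory subunits, ND-MNLL moved from 0.548 of the median subunit in H2O-Young to 1.91 in PQ-Aged, from rank 26 to rank 6 of 34. ND-MLRQ moved from 2.90 to 1.18, from rank 3 to rank 14.

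**Figure D4:**
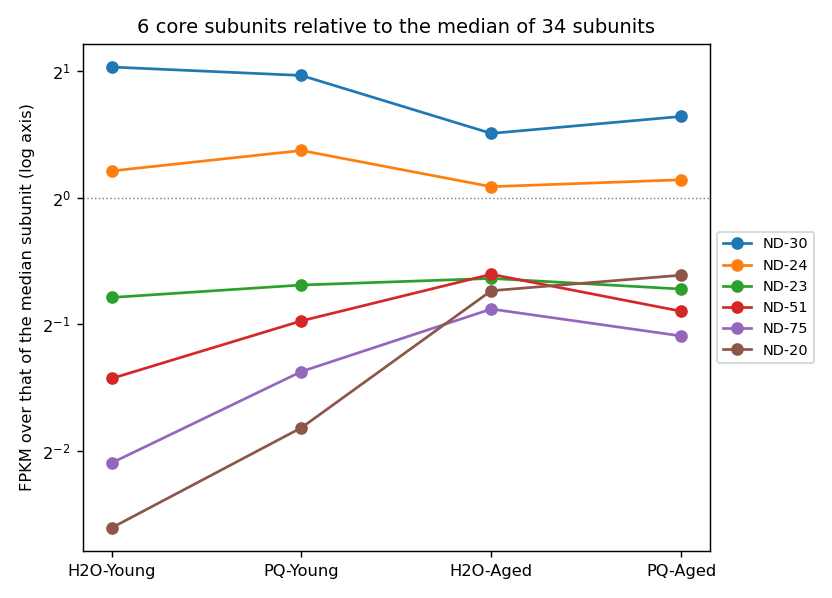
FPKM of each of 6 core subunits divided by that of the median of 34 subunits in the same group, on a log axis, with lines that only join the values of 1 subunit. The values run from 0.164 (ND-20) to 2.04 (ND-30) in H2O-Young and from 0.543 (ND-75) to 1.42 (ND-30) in H2O-Aged.

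The order of the subunits by FPKM was nonetheless much alike in the groups, with a Spearman's rho of 0.97 between H2O-Young and PQ-Young, 0.95 between H2O-Aged and PQ-Aged and 0.85 between H2O-Young and H2O-Aged. Subunits of higher FPKM in PQ-Young, a group outside the comparison, tended to have lower age ratios in water (rho of -0.41 over 34 subunits and -0.55 over 32, without ND-B8 and ND-AGGG). The matching relation, of FPKM in H2O-Young with the age ratio under paraquat, was weaker (rho of -0.15 over 34 and -0.37 over the same 32). Transcript length, 460 to 2571 bases with a median of 797, had a rho of 0.33 with the age ratio in water and of -0.15 with the FPKM of H2O-Young. Exons of 16 subunits overlap a gene on the opposite strand and those of 4 a gene on the same strand, and 6 loci hold a second gene. Of the 15 subunits clear of all of these, 13 were at least 2-fold lower with age in water and 2 with paraquat in young flies, with median log2 ratios of -1.88 and -0.73.

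The other nuclear-encoded complexes of oxidative phosphorylation were also lower in median with age in water as deposited, complex II the least. With age in water 2 of 4 subunits of complex II, 8 of 8 of complex III, 8 of 9 of complex IV and 8 of 13 of complex V, the ATP synthase, were at least 2-fold lower, with median log2 ratios of -1.15, -1.99, -1.80 and -1.47 against -1.84 for complex I. With paraquat in young flies the medians were -0.41, -0.86, -0.53 and -0.48 against -0.73, and 1, 1, 0 and 0 of these subunits were at least 2-fold lower. In aged flies the medians were -0.26, 0.06, 0.12 and -0.13 against 0.12. With the same summed FPKM in each group, 0 of 4, 4 of 8, 1 of 9 and 0 of 13 subunits of complexes II to V were at least 2-fold lower with age in water, against 11 of 34 of complex I. After quantile scaling these counts were 0, 3, 0 and 0 against 16, with median log2 ratios of -0.35, -0.92, -0.40 and -0.23 against -0.91. Of all loci 17.5% were lower under that scaling. The complexes were not tested against each other. The 4 complex I assembly factors, CIA30, ECSIT, Egm and sicily, were at 354, 45.1, 68.0 and 55.8 FPKM in H2O-Young. With age in water 3 of them were at least 2-fold lower, with a median log2 ratio of -1.18, and sicily was at -0.23.

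**Figure D5:**
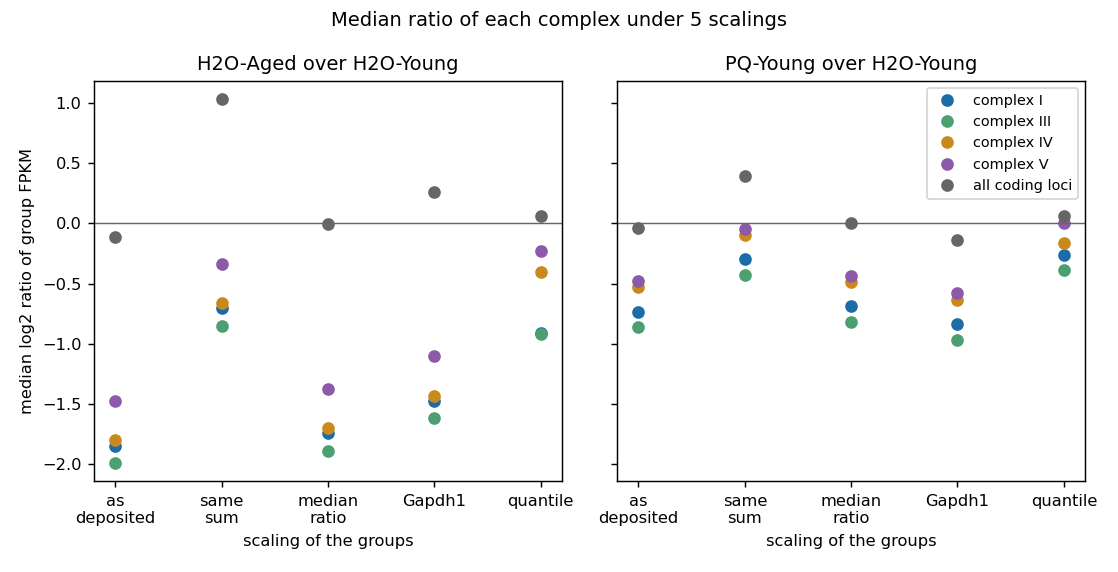
Median log2 ratio of complexes I, III, IV and V and of all protein-coding loci with age in water (left) and with paraquat in young flies (right) under 5 scalings of the groups. The complex I median runs from -1.84 to -0.70 on the left and from -0.83 to -0.26 on the right.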

How the data were processed

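Libraries of 12 samples, 3 per group, were made from equal amounts of RNA. The labels and methods of the study name TopHat2, Cufflinks, Cuffdiff and the dm6 build. The authors deposited 1 Cuffdiff table with the pooled FPKM of each group for 16191 loci in all 6 pairs of groups. Its other columns hold the authors' own fold changes, test statistics, p-values and q-values, and none of these was used. Of 30550 RefSeq transcript IDs, 30349 were matched to a symbol of the Release 6 annotation. Loci with too many fragments to be quantified in some pair (53 of 13299 protein-coding loci) were left out, leaving 13246. Log2 ratios were taken of group FPKM with no pseudocount (Python 3.11.15, pandas 2.3.3, numpy 2.4.6, scipy 1.17.1). The counting of calls was checked on group values with known factors put in and no noise. That check bears on the arithmetic and not on how reliable a call is.

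Pooled values carry no error, so neither a test nor the omission of a library was possible, and the ratios compare these pools only. Alternatives were 4 other scalings (same sum of FPKM, median ratio, Gapdh1, quantile), other minimums, a pseudocount, another fold and the omission of loci with a second gene. The members and lists were chosen with earlier results of these data known. A core subunit and its copy enter the counts but are not reported here by name. Subunits named were the other core subunits, the 6 highest and 4 lowest accessory subunits in H2O-Young, the 3 strongest and 3 weakest ratios of each comparison, every other copy and every exception to the majority call. No sequence is shown, and promoter motifs were not searched, because no sequence was at hand.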

Additional observations from a re-analysis of the deposited data

How the results depend on the processing

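No paired analysis was possible because the deposited values are 1 pool per group, so no leave-one-out value could be had either. In H2O-Aged against H2O-Young the 30 subunits at least 2-fold lower became 11 with the same sum of FPKM and 16 with quantile scaling, and the 0 higher became 1 with the same sum and 1 with no minimum FPKM. In PQ-Young against H2O-Young the 7 lower became 1 with the same sum, 1 with quantile scaling and 22 at a fold of 1.5. In PQ-Aged against H2O-Aged the 1 lower became 0 with a pseudocount of 1 FPKM, 0 at a minimum of 10 FPKM and 2 with no minimum, and the 0 higher became 3 with Gapdh1, 4 with no minimum and 1 at a fold of 1.5. In PQ-Aged against PQ-Young the 20 lower became 2 with the same sum, 1 with Gapdh1 and 3 with quantile scaling, and the 0 higher became 2 with Gapdh1 and 4 with no minimum. The members that entered with no minimum are copies at or near 0 FPKM in the groups compared. Of all loci, 6.25% (same sum) and 17.5% (quantile) were lower with age in water. For paraquat in young flies these shares were 4.13% and 6.81%. For age under paraquat they were 4.09% (same sum), 2.84% (Gapdh1) and 10% (quantile). With Gapdh1, 9.6% of all loci were higher in PQ-Aged than in H2O-Aged and 45.1% were higher than in PQ-Young. Without loci that overlap another gene, a choice made after seeing the data that leaves 15 subunits, the lower counts were 13, 2, 0 and 9. Without the 100 loci of highest FPKM in any group, 1 subunit among them, the share of summed FPKM was 3.90%, 2.95%, 1.85% and 2.11%. The log2 ratio of ND-15 with age in water turned to 0.012 under quantile scaling and that of ND-23 with age under paraquat to 0.016 with Gapdh1, and these were the only called subunits named here to turn sign. Scaling by the median ratio changed no count by more than 1.5 times. Since neither replicate error nor depth is known, the size of a difference that these pools could resolve is unknown.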

Other observations

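Some genes that work beside complex I had other ratios. Cyt-c-p, the cytochrome c that carries electrons from complex III to complex IV, was at 153 FPKM in H2O-Young and 199 in PQ-Young, against 244 in H2O-Aged and 167 in PQ-Aged, with a log2 ratio of 0.67 with age in water. ATPsynC, the ring subunit of the ATP synthase, was at 560.4, 705, 729 and 742 FPKM in the same order. Among enzymes that feed electrons into ubiquinone by other routes, Etf-QO was at 151, 95.4, 61.6 and 54.3 FPKM and Gpo1 at 157, 113, 74.7 and 54.4. Dhod, of pyrimidine synthesis, was at 67.4, 79.3, 63.1 and 74.2 FPKM. Etf-QO and Gpo1 were at least 2-fold lower with age in water, as most subunits of complex I were, and Cyt-c-p, ATPsynC and Dhod were not.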
